A study of Homo sapiens with 16 samples.

Results

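The growth factor FGF2, its antisense partner NUDT6 and the 5 fibroblast growth factor receptors FGFR1, FGFR2, FGFR3, FGFR4 and FGFRL1 were followed through HNRNPH1 depletion in a pair of human cell lines. They are 7 of the 61906 genes listed in the deposited tables, and 142 of the 251295 transcripts belong to them. The genes were taken by symbol. FGF2 was chosen because its level was lower with the HNRNPH1 siRNA in both lines, so its siRNA contrast is given as a description with no test. NUDT6 was added as the antisense gene of FGF2 and the receptors for their part in its pathway. These other 6 genes were tested.

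HT-1080 is an established fibrosarcoma line, and HEK-293T an embryonic kidney line that carries viral genes, SV40 large T among them. Both received either siHNRNPH1, an siRNA that targets HNRNPH1, or siNegative, a control siRNA, at 20 nM, and were harvested 48 h after transfection. Controls and treated cells therefore share the transfection. HNRNPH1 is an RNA-binding protein that regulates splicing through G-rich sequences. Each of the 4 groups has 3 short-read libraries, described as biological replicates in the labels, and 1 long-read (IsoSeq) pool of replicates. All libraries are of bulk RNA, in which fewer cells with a transcript and less of that transcript per cell cannot be told apart.

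FGF2 is a secreted ligand that leaves the cell without a signal peptide and binds heparan sulfate and receptor tyrosine kinases. Receptor activation feeds the RAS and ERK cascade, which induces its own inhibitors, the Sprouty proteins and dual-specificity phosphatases. NUDT6 encodes a nudix hydrolase and is transcribed from the strand opposite to FGF2, so that the transcripts of both genes overlap at their 3' ends. FGFRL1 binds ligands but lacks the tyrosine kinase domain of FGFR1 to FGFR4.

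Total counts were 107.7 to 121.0 M (mega counts) for the HEK-293T libraries and 27.3 to 32.7 M for those of HT-1080, so low genes are less precisely measured in HT-1080. A level in CPM is the count per M of all counts in that library. HNRNPH1 itself stood at 1105 to 1121 CPM with siNegative and at 234, 376 and 394 CPM with siHNRNPH1 in HEK-293T. In HT-1080 it stood at 606 to 635 CPM with siNegative and at 228 to 232 CPM with siHNRNPH1. Replicate 1 of HEK-293T siHNRNPH1, the library with the lowest HNRNPH1, stood apart. Its log2 CPM correlated across 19913 genes with those of replicates 2 and 3 at a Pearson r of 0.965 and 0.961, against 0.999 between replicates 2 and 3. The HEK-293T gene log2 fold changes of the 7 genes are therefore given with and without it. As it was left out for standing apart, p-values without it understate the variation between replicates. In HT-1080, siNegative replicate 2 departed to a lesser degree. Its r across 16020 genes was 0.9957 with replicate 1 and 0.9959 with replicate 3, against 0.998 between those. Without siNegative replicate 2 the HT-1080 log2 fold change was 3.56 rather than 3.17 for FGFR3 and -2.37 rather than -2.29 for FGF2. Of 5 markers fixed for each line, 5 were higher in HT-1080 controls for that line and 3 in HEK-293T controls, where PAX8 was at most 0.0165 CPM and NEFL was lower than in HT-1080. The leukocyte marker PTPRC was at most 0.00826 CPM in siNegative cells. The endothelial marker PECAM1 was 0.0996 to 0.165 CPM in HT-1080 siNegative, above the 0.00826 to 0.0270 CPM of HEK-293T siNegative. The hepatocyte marker ALB was at most 0.0180 CPM in siNegative cells, with at most 30 counts in any HEK-293T library.

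FGF2, the ligand (ENSG00000138685.17), was lower in every siHNRNPH1 library than in every siNegative library of its line. In HEK-293T its level was 32.9, 35.3 and 34.7 CPM with siNegative and 4.55, 11.3 and 12.7 CPM with siHNRNPH1. In HT-1080 it was 24.4, 20.7 and 25.4 CPM with siNegative and 4.62, 5.36 and 5.13 CPM with siHNRNPH1. The mean with siNegative was 3.61 times that with siHNRNPH1 in HEK-293T and 4.66 times in HT-1080. The edgeR log2 fold changes were -1.89 (SE 0.36) and -2.29 (SE 0.10). The HEK-293T value was -1.58 (SE 0.06) without replicate 1 of siHNRNPH1. That replicate held the lowest FGF2 level of its group and also the lowest HNRNPH1 level. By mean level, the groups ran from HEK-293T siNegative through HT-1080 siNegative and HEK-293T siHNRNPH1 to HT-1080 siHNRNPH1. The ranges of the siHNRNPH1 groups of the lines overlapped.

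**Figure D1:**
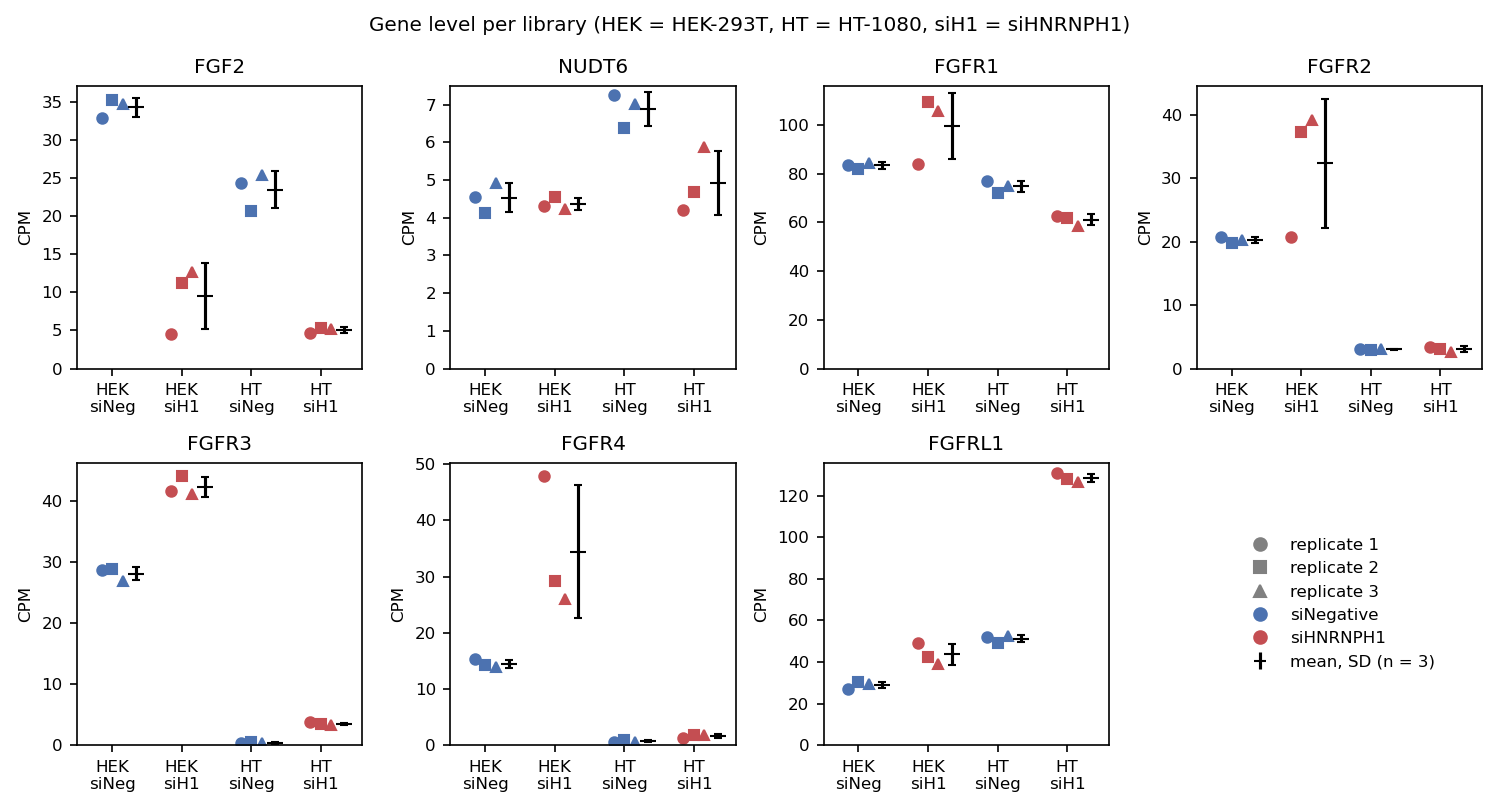
Level of each of the 7 genes in CPM (vertical axis from 0) in the 12 short-read libraries, grouped by cell line and siRNA; point shapes mark replicates and bars the mean and SD of 3 libraries. FGF2 is lower with siHNRNPH1 in both lines, FGFRL1 is higher, and replicate 1 of HEK-293T siHNRNPH1 departs from its group for FGF2, FGFR1, FGFR2 and FGFR4.

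NUDT6 (ENSG00000170917.14), on the opposite strand, did not pass the test in HEK-293T and fell in HT-1080. In HEK-293T it measured 4.56, 4.13 and 4.92 CPM with siNegative and 4.32, 4.55 and 4.23 CPM with siHNRNPH1, so the groups overlapped. Its log2 fold change there was -0.08 (SE 0.13, edgeR adjusted p = 0.73), and -0.10 without replicate 1 (edgeR adjusted p = 0.347). In HT-1080 NUDT6 measured 7.25, 6.38 and 7.003 CPM with siNegative and 4.21, 4.69 and 5.86 CPM with siHNRNPH1, and the groups did not overlap. It fell by 0.55 on the log2 scale (SE 0.13, edgeR adjusted p = 0.00346). Between the lines, the log2 fold changes differed by -0.54 (interaction edgeR adjusted p = 0.0779), and without HEK-293T siHNRNPH1 replicate 1 it was -0.50 (edgeR adjusted p = 0.017).

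The count of FGF2 relative to that of NUDT6 was lower with siHNRNPH1 in both lines. As FGF2 was chosen for its fall, this is a description and not a separate result. This ratio is not corrected for transcript length and serves only to compare libraries. It was 7.23, 8.55 and 7.06 in the HEK-293T siNegative libraries and 1.05, 2.47 and 3.01 in the siHNRNPH1 libraries. In HT-1080 it was 3.36, 3.25 and 3.63 with siNegative and 1.10, 1.14 and 0.874 with siHNRNPH1. Whether the short reads carry strand is not stated. Without strand, reads from the overlap of FGF2 and NUDT6 cannot be told apart, and RSEM would have divided them between the genes. When the counts of both genes were added, the log2 fold change was -1.52 in HEK-293T and -1.68 in HT-1080, and these sums do not depend on how reads were divided between the genes. How far shared reads set the level of NUDT6 was not tested.

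The genes on either side of the FGF2 and NUDT6 pair gave different values. SPATA5, which encodes an AAA ATPase, stood at 23.2, 22.7 and 22.7 CPM with siNegative and at 6.62, 16.3 and 16.9 CPM with siHNRNPH1 in HEK-293T. In HT-1080 it went from 22.9, 20.9 and 20.6 CPM to 8.49, 7.38 and 7.55 CPM, and fell by 1.53 on the log2 scale (SE 0.08, edgeR adjusted p = 1.89e-07). Its HEK-293T value of -0.83 had an edgeR adjusted p = 0.183, and without replicate 1 of siHNRNPH1 it was -0.52 (edgeR adjusted p = 3.44e-09). BBS12, a chaperonin-like gene linked to cilia, was 3.77, 3.72 and 4.06 CPM with siNegative and 5.58, 6.06 and 5.76 CPM with siHNRNPH1 in HT-1080, a rise of 0.52 (SE 0.10, edgeR adjusted p = 9.80e-04). In HEK-293T its log2 fold change was -0.06 (edgeR adjusted p = 0.85).

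**Figure D2:**
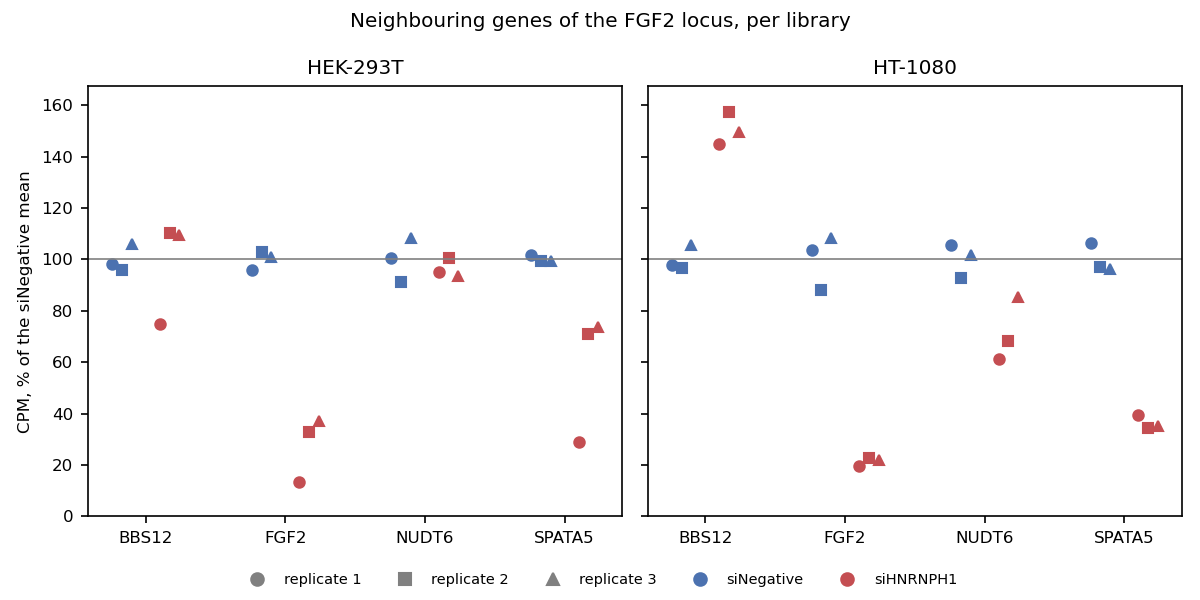
Level of BBS12, FGF2, NUDT6 and SPATA5 in each short-read library as a percentage of the mean of the siNegative libraries of the same line (vertical axis from 0, line at 100); point shapes mark replicates. In HT-1080 the siHNRNPH1 libraries lie below 100 for FGF2, NUDT6 and SPATA5 and above it for BBS12, while in HEK-293T the NUDT6 points of both siRNAs overlap.

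Receptor transcripts rose in HEK-293T or did not pass the test, and none of the 6 genes other than FGF2 fell there. FGFR3 and FGFR4 passed with all 6 libraries, 2 of 6, both higher. Across all genes tested in HEK-293T, 5.12% were called higher and 4.88% lower. Without siHNRNPH1 replicate 1, 5 of the 6 genes were called, all higher, against a background of 30.5% called higher and 31.3% lower. Under each edgeR fit that left out another HEK-293T library, 0 of the 6 were called, and DESeq2 on all 6 libraries called 3, adding FGFRL1. In HT-1080, 5 of 6 were called, with FGFR3, FGFR4 and FGFRL1 higher and FGFR1 and NUDT6 lower. There 32.7% of all genes tested were called higher and 32.6% lower.

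FGFR1 (ENSG00000077782.22), a receptor tyrosine kinase for FGF2, had values on opposite sides of 0 in the lines. In HEK-293T it was 83.7, 81.9 and 84.5 CPM with siNegative and 83.9, 109 and 105 CPM with siHNRNPH1, where replicate 1 lay among the controls. The log2 fold change was 0.22 (SE 0.13, edgeR adjusted p = 0.323), and without replicate 1 it was 0.31 (SE 0.03, edgeR adjusted p = 2.09e-08). In HT-1080 FGFR1 was 76.9, 72.2 and 75.0 CPM with siNegative and 62.6, 62.0 and 58.4 CPM with siHNRNPH1. All 3 siHNRNPH1 libraries lay below the controls, and FGFR1 fell by 0.36 (SE 0.05, edgeR adjusted p = 1.13e-04). HT-1080 minus HEK-293T gave -0.65 (SE 0.12, interaction edgeR adjusted p = 0.00344). Among all genes, 19.0% were called in this interaction, and 3 of the 6 genes tested here were. Those were FGFR1, FGFR3 and FGFRL1.

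FGFR2 (ENSG00000066468.24), whose splice forms bind different sets of ligands, was split by the HEK-293T replicates. Its siNegative levels were 20.8, 19.9 and 20.2 CPM, and its siHNRNPH1 levels were 20.7, 37.3 and 39.2 CPM. Replicate 1 was thus within the control range and the other siHNRNPH1 libraries far above it. The log2 fold change was 0.64 (SE 0.23, edgeR adjusted p = 0.15) with replicate 1 and 0.86 (SE 0.04, edgeR adjusted p = 1.30e-13) without it. In HT-1080 FGFR2 was low, at 3.04, 2.99 and 3.07 CPM with siNegative and 3.46, 3.06 and 2.53 CPM with siHNRNPH1, and the groups overlapped. Its log2 fold change there was -0.07 (SE 0.14, edgeR adjusted p = 0.659).

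FGFR3 (ENSG00000068078.20), a receptor known for restraining bone growth, rose in both lines. In HEK-293T it went from 28.6, 28.8 and 26.8 CPM to 41.7, 44.1 and 41.1 CPM, and here replicate 1 lay between the others. The rise was 0.56 (SE 0.11, edgeR adjusted p = 0.0299) with replicate 1 and 0.54 (SE 0.04, edgeR adjusted p = 2.62e-10) without it. In HT-1080 FGFR3 was close to undetected in the controls, at 0.293, 0.531 and 0.264 CPM, from 8, 16 and 8 counts. With siHNRNPH1 it reached 3.70, 3.43 and 3.30 CPM, from 108, 112 and 94 counts. That rise was 3.17 (SE 0.23, edgeR adjusted p = 1.61e-06). It exceeded the HEK-293T rise by 2.54 (SE 0.24, interaction edgeR adjusted p = 6.58e-05), although the final level in HT-1080 remained below that of HEK-293T controls.

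FGFR4 (ENSG00000160867.15), the receptor that pairs with beta-Klotho for FGF19, rose in both lines. In HEK-293T it went from 15.3, 14.2 and 13.9 CPM to 47.9, 29.2 and 26.0 CPM, with replicate 1 the highest. The rise was 1.24 (SE 0.28, edgeR adjusted p = 0.0452) with all libraries and 0.88 (SE 0.05, edgeR adjusted p = 5.61e-12) without replicate 1. In HT-1080 FGFR4 went from 0.623, 0.897 and 0.529 CPM, or 17, 27 and 16 counts, to 1.27, 1.84 and 1.86 CPM, or 37, 60 and 53 counts. It rose there by 1.20 (SE 0.26, edgeR adjusted p = 0.0024). HT-1080 minus HEK-293T was -0.11 (SE 0.44, interaction edgeR adjusted p = 0.933), and its sign turned to 0.03 with scaling by library size alone, to 0.28 without HEK-293T siHNRNPH1 replicate 1 and to 0.14 without HT-1080 siNegative replicate 2. None of these values was called.

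FGFRL1 (ENSG00000127418.15), the receptor without a kinase domain, rose in HT-1080. It went there from 52.1, 49.2 and 52.4 CPM to 130.9, 128 and 127 CPM, a mean 2.51 times that of siNegative. The rise was 1.26 (SE 0.04, edgeR adjusted p = 1.70e-08). In HEK-293T it went from 27.2, 30.1 and 29.3 CPM to 49.3, 42.6 and 39.2 CPM. All 3 siHNRNPH1 libraries lay above the controls, but the log2 fold change of 0.58 (SE 0.15) had an edgeR adjusted p = 0.0643. Without replicate 1 it was 0.45 (SE 0.05, edgeR adjusted p = 6.77e-08). With all libraries, HT-1080 minus HEK-293T was 0.61 (SE 0.17, interaction edgeR adjusted p = 0.0295), and without HEK-293T siHNRNPH1 replicate 1 it was 0.77 (edgeR adjusted p = 2.27e-07). The call was lost when any one HT-1080 library, or siNegative replicate 2 or 3 or siHNRNPH1 replicate 2 of HEK-293T, was left out, with an edgeR adjusted p between 0.0551 and 0.0796.

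**Figure D3:**
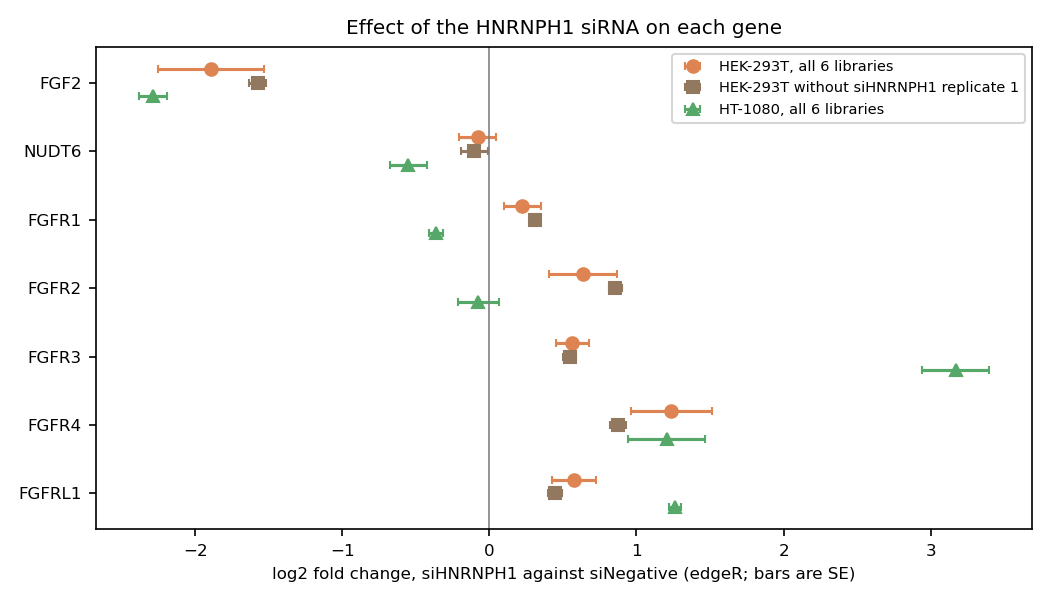
Log2 fold change of siHNRNPH1 against siNegative for each gene (horizontal axis; points are edgeR estimates and bars their SE) in HEK-293T with 6 libraries, in HEK-293T without siHNRNPH1 replicate 1, and in HT-1080. FGFR3 and FGFR4 lie to the right of 0 in each fit, FGF2 to the left, and FGFR1 on opposite sides of 0 in the lines.

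FGFR1 took a smaller part of the receptor counts with siHNRNPH1 in both lines. As a share of the summed counts of FGFR1 to FGFR4, which are not corrected for length, FGFR1 held 56.4, 56.6 and 58.1% in HEK-293T siNegative and 43.2, 49.7 and 49.8% in siHNRNPH1. In HT-1080 its share was 95.1, 94.2 and 95.1% with siNegative and 88.1, 88.1 and 88.4% with siHNRNPH1. FGFR3 took 0.362, 0.694 and 0.335% of the HT-1080 counts with siNegative and 5.20, 4.88 and 4.99% with siHNRNPH1. In HEK-293T the FGFR4 share was 10.3, 9.81 and 9.58% with siNegative and 24.7, 13.3 and 12.3% with siHNRNPH1.

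Between siNegative cells, 5 of the 7 genes were called, with FGFRL1 and NUDT6 higher in HT-1080 and FGFR2, FGFR3 and FGFR4 lower. Of all genes, 34.1% were called higher and 38.2% lower in HT-1080. FGFR3 was 6.04 lower on the log2 scale (log2 difference -6.04, SE 0.19, edgeR adjusted p = 4.91e-10), and the differences were -4.18 for FGFR4 and -2.52 for FGFR2. FGFRL1 differed by 1.05 (edgeR adjusted p = 1.47e-05) and NUDT6 by 0.82 (edgeR adjusted p = 2.60e-04). FGF2 differed by -0.32 (SE 0.26, edgeR adjusted p = 0.279), although its siNegative ranges did not overlap. Without HEK-293T siHNRNPH1 replicate 1, which enters the shared spread, that difference was -0.31 (edgeR adjusted p = 5.48e-04). FGFR1 differed by 0.07 (edgeR adjusted p = 0.501), or by -0.16 when scaled by library size alone. That scaling moved the median log2 difference of all genes from -0.11 to -0.33. Each line was deposited in its own table with its own depth, and line and library preparation cannot be told apart.

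Transcript shares describe which listed variants of a gene held its expected counts. RSEM divides reads between overlapping variants, so shares of similar variants are uncertain. Transcripts were compared where the gene had a mean count of at least 50 and the transcript a mean share of at least 5%. Both means were taken over the 6 libraries of a line. With 3 libraries against 3, an exact permutation test cannot give a two-sided p under 0.1. In HEK-293T, the groups did not overlap for 5 of the 24 transcripts of the 6 genes other than FGF2 (20.8%), against 30.7% of all transcripts compared. In HT-1080 they did not overlap for 4 of 20 (20%), against 27.9%. Both shares are below those of all transcripts.

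FGF2 itself was carried by a single variant in HEK-293T. ENST00000644866.2 held 98.8 to 100% of its counts with siNegative and 92.8 to 100% with siHNRNPH1. In HT-1080 the counts were divided. ENST00000644866.2 held 63.0, 62.9 and 47.5% with siNegative and 58.8, 23.6 and 0% with siHNRNPH1, so its share varied widely within the siHNRNPH1 group. ENST00000264498.8 held 37.0, 37.1 and 52.5% with siNegative and 15.8, 37.0 and 75.9% with siHNRNPH1. The ranges overlapped for both. ENST00000608478.1 was listed at 0 in the 3 siNegative libraries of HT-1080, which allows shares of up to 0.451, 0.481 and 0.390% by counting error. Such limits, here and for the variants below, leave out the error from how RSEM divided reads between variants. With siHNRNPH1 it held 25.4, 39.5 and 24.1%, from 34.3, 69.1 and 35.2 expected counts. So this variant was the only one of the 3 listed for FGF2 that was higher in count in each HT-1080 siHNRNPH1 library, while the gene total was lower.

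Among NUDT6 variants, ENST00000339154.6 held 43.7, 43.5 and 42.0% of NUDT6 in HEK-293T siNegative and 40.2, 26.1 and 33.5% in siHNRNPH1. In HT-1080 the same variant held 16.3, 2.08 and 13.2% with siNegative and 29.8, 16.4 and 19.3% with siHNRNPH1, with only 4 to 36.7 expected counts per library. The lines were not compared by a test of shares. ENST00000304430.10 went from 54.3, 67.6 and 49.9% to 36.6, 45.0 and 32.0% in HT-1080. In each of these 3 cases the groups did not overlap and the exact two-sided permutation p was 0.1, the smallest possible. A limma diffSplice test of usage in NUDT6 gave an adjusted p = 0.0835 in HT-1080 and 0.451 in HEK-293T.

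For FGFR3 in HT-1080, ENST00000440486.8 was listed at 0 in the siNegative libraries and held 58.4, 62.6 and 70.6% with siHNRNPH1. With 8, 16 and 8 counts for the gene, a count of 0 allows shares of up to 37.5, 18.8 and 37.5%, so the difference rests on few control reads. In HEK-293T the same variant held 67.5, 68.6 and 56.5% with siNegative and 35.2, 66.4 and 69.3% with siHNRNPH1, where replicate 1 is the low value. FGFRL1 was almost entirely ENST00000264748.6 in HEK-293T, at 99.6 to 99.9% in all 6 libraries. In HT-1080 that variant held 89.8, 86.3 and 91.2% with siNegative and 75.9, 86.0 and 82.4% with siHNRNPH1, and the diffSplice adjusted p for FGFRL1 was 0.0551.

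In HEK-293T, ENST00000425967.8 of FGFR1 held 7.96, 9.13 and 8.14% with siNegative and 3.24, 7.05 and 7.39% with siHNRNPH1. ENST00000524528.2 held 6.06, 5.83 and 6.25% and then 3.34, 4.89 and 5.06%. For FGFR2, ENST00000638709.2 held 2.56, 4.18 and 0% with siNegative, where the 0 allows up to 0.123%, and 19.2, 7.51 and 6.27% with siHNRNPH1. ENST00000613048.4 of FGFR2 held 21.0, 27.5 and 15.0% with siNegative and 0, 8.51 and 10.2% with siHNRNPH1, where the 0 allows up to 0.135%. The groups did not overlap for any of these 4 variants, with an exact permutation p of 0.1 each, and replicate 1 of siHNRNPH1 was the most extreme library in each. Other FGFR1 variants of HEK-293T fell outside the comparison, as their mean share over the 6 libraries was under 5%. Of these, ENST00000397113.6 held 6.95, 6.40 and 6.44% with siNegative and was listed at 0 in every siHNRNPH1 library (limma diffSplice adjusted p = 0.0703). ENST00000356207.9 went from 1.95, 2.03 and 2.46% to 3.86, 6.16 and 5.64% (limma diffSplice adjusted p = 0.242). By diffSplice, FGFR1 usage passed in HT-1080 (limma adjusted p = 0.046), where ENST00000447712.7 led. It held 17.6, 21.9 and 0.00176% with siNegative and 18.4, 25.9 and 27.0% with siHNRNPH1, so siNegative replicate 3 is the low value. Over all genes, diffSplice called 2118 of 10752 in HT-1080 and 1128 of 13018 in HEK-293T.

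The variants with the largest share of FGFR1 and of FGFR4 in HEK-293T had overlapping groups. ENST00000674380.1 of FGFR1 held 34.6, 36.4 and 30.1% with siNegative and 32.1, 27.7 and 26.7% with siHNRNPH1. ENST00000292408.9 of FGFR4 held 62.7, 63.1 and 63.1% with siNegative and 77.3, 65.9 and 61.1% with siHNRNPH1, where replicate 1 is the high value. Of the 3 FGFR4 transcripts compared there, 0 had groups that did not overlap.

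**Figure D4:**
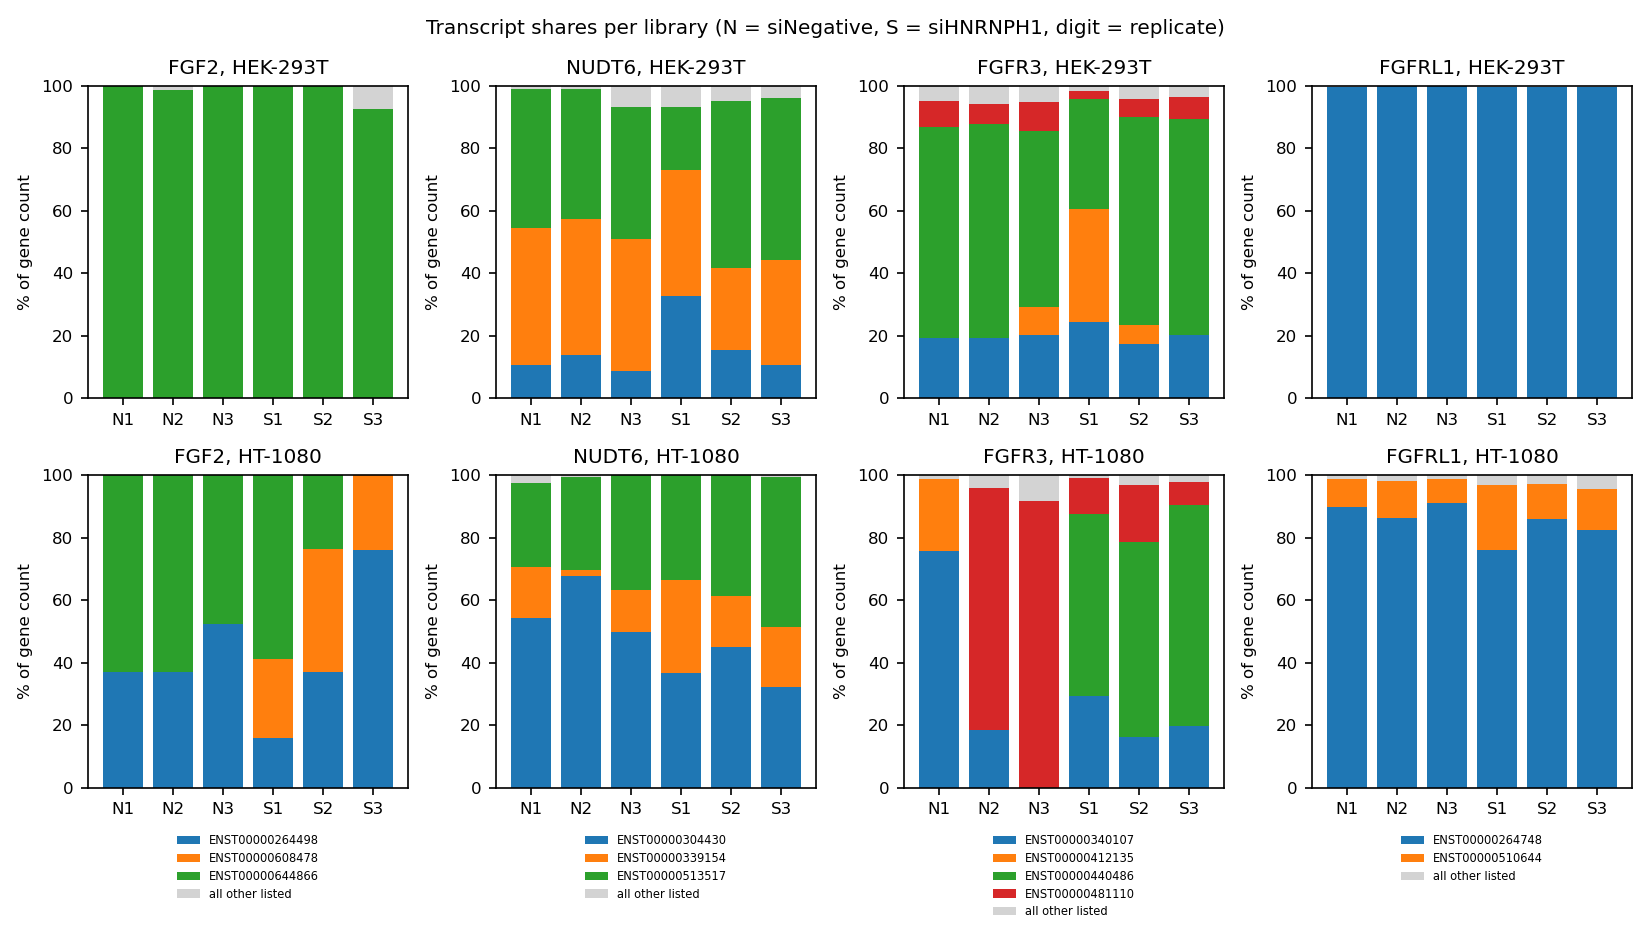
Share of the expected counts of FGF2, NUDT6, FGFR3 and FGFRL1 held by each variant (vertical axis 0 to 100%) in the 6 libraries of HEK-293T (top) and HT-1080 (bottom), N for siNegative and S for siHNRNPH1; grey is the sum of the variants with a mean share under 5% in both groups of that line. In HT-1080, ENST00000608478 of FGF2 and ENST00000440486 of FGFR3 appear in the siHNRNPH1 libraries and are listed at 0 in the siNegative libraries.

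Long reads gave little on these genes. The 4 IsoSeq pools have no counts of reads and no replicates. They hold 64705 transcript models for HEK-293T siNegative and 94847 for HEK-293T siHNRNPH1. For HT-1080 they hold 72186 with siNegative and 68078 with siHNRNPH1. FGF2 and NUDT6 had 0 models in all 4 pools, on either strand, while the flanking genes BBS12 and SPATA5 (AFG2A in RefSeq) had 2 to 4 and 1 to 8. The pools therefore do not tell the strand of the FGF2 and NUDT6 reads. FGFRL1 had 4 models in HT-1080 siNegative and 9 in HT-1080 siHNRNPH1, 0 in HEK-293T siNegative and 3 in HEK-293T siHNRNPH1. The first of the HT-1080 siHNRNPH1 models of FGFRL1 had 8 exons on the plus strand at chr4:1009922-1026897, and all 9 ended between positions 1026890 and 1026897. FGFR4 had 3 models in HEK-293T siNegative and 6 in siHNRNPH1, and in HT-1080 0 and 1. FGFR1 had 0 and 3 models in HEK-293T and 10 and 5 in HT-1080. FGFR2 had 1 model, in HEK-293T siNegative, and FGFR3 had 1, in HEK-293T siHNRNPH1. Numbers of models follow depth and filtering as well as level, so these values are a description.

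Other genes of FGF signalling were read from a list of 69, of which 58 were tested in HEK-293T and 50 in HT-1080. In HEK-293T, 15 passed (25.9%), 8 higher and 7 lower (over all genes, 5.12% higher and 4.88% lower), with a median log2 fold change of -0.05 against 0.02 over all genes. Without siHNRNPH1 replicate 1, 46 passed (79.3%), 28 higher and 18 lower, where 30.5% of all genes were called higher and 31.3% lower. Fits that left out another HEK-293T library called between 0 and 5 of them. In HT-1080, 36 passed (72%), 24 higher and 12 lower, with a median of 0.20 against 0.01 over all genes. There 32.7% of all genes were called higher and 32.6% lower, so most genes passed in that line. Of the 15 and the 36, 8 passed in both lines, among 48 genes tested in both, and 7 of these went in the same direction. FGF18, SDC3, HSPG2, SULF2 and SPRED3 were higher and PLCG1 and SPRY4 lower, while DUSP6, at low counts in HT-1080, went in opposite directions. The share of all genes that passed in both lines was not computed, so these counts are a description.

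Of the 17 other ligands, 9 were tested in HEK-293T and 4 in HT-1080. FGF18, a ligand with a preference for FGFR3, rose in both lines from very low levels. It went from 0.171, 0.241 and 0.149 CPM to 1.30, 1.10 and 1.01 CPM in HEK-293T, a rise of 2.58 (SE 0.26, edgeR adjusted p = 0.00746). In HT-1080 its rise of 3.30 (SE 0.52, edgeR adjusted p = 3.44e-04) started from 1 to 4 counts per siNegative library. FGF17 rose by 1.87 in HEK-293T (SE 0.33, edgeR adjusted p = 0.0246) and was at 0 in HT-1080 siNegative. FGF1, the other ligand without a signal peptide, was tested only in HT-1080, where it went from 2.93, 3.35 and 2.94 CPM to 1.71, 0.919 and 1.16 CPM. It fell by 1.36 (SE 0.21, edgeR adjusted p = 2.99e-04). FGF12, an intracellular relative that binds sodium channels, fell by 2.10 in HT-1080 (SE 0.15, edgeR adjusted p = 1.37e-06), with a value of -0.08 in HEK-293T (interaction edgeR adjusted p = 1.09e-04).

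Co-receptors and carriers bring FGF ligands to their receptors, and in HT-1080 7 of 8 tested rose and 0 fell, where 32.7% of all genes rose and 32.6% fell. The largest of these rises was that of the syndecan SDC4, named after its value was seen, from 53.5, 55.8 and 55.8 CPM to 119, 116 and 120 CPM (log2 fold change 1.03, SE 0.04, edgeR adjusted p = 5.71e-08). In HEK-293T SDC4 was lower in every siHNRNPH1 library, from 19.2, 19.4 and 19.4 CPM to 13.3, 16.5 and 15.7 CPM. Its log2 fold change there was -0.38 (edgeR adjusted p = 0.0883), and -0.32 without replicate 1 (edgeR adjusted p = 6.57e-06). HT-1080 minus HEK-293T was 1.35 for SDC4 (interaction edgeR adjusted p = 2.18e-05). Of the co-receptors and carriers, 2 of 9 rose and 1 fell in HEK-293T, beside 5.12% higher and 4.88% lower over all genes. Without siHNRNPH1 replicate 1, 4 rose and 3 fell, beside 30.5% higher and 31.3% lower. The one that fell with all libraries was FGFBP3, a carrier that releases FGF2 from heparan sulfate, from 4.02, 4.12 and 3.83 CPM to 1.09, 1.18 and 1.25 CPM. Its fall was 1.79 on the log2 scale (log2 fold change -1.79, SE 0.13, edgeR adjusted p = 0.00486), and its HT-1080 value was 0.10 (interaction edgeR adjusted p = 7.63e-05). Among heparan sulfate enzymes, 7 of 8 passed in HT-1080, 5 higher and 2 lower, again beside 32.7 and 32.6% of all genes. In HEK-293T 1 of 9 passed with all libraries, beside 5.12% higher and 4.88% lower over all genes. Without siHNRNPH1 replicate 1, 9 of 9 passed, 6 higher and 3 lower, where 30.5% of all genes were called higher and 31.3% lower. HS2ST1, a sulfotransferase whose product FGF2 binds, rose in HT-1080 from 37.0, 32.2 and 38.4 CPM to 81.7, 80.2 and 79.9 CPM (log2 fold change 1.10, SE 0.06, edgeR adjusted p = 3.26e-07). Of 3 partners of FGF2 inside the cell or in its export, 2 fell in HT-1080 and 0 passed in HEK-293T, or 2 without replicate 1, 1 in each direction. Adaptors and core signalling proteins passed in 2 of 10 cases in HEK-293T, 1 in each direction, and in 8 without replicate 1, 5 higher and 3 lower. In HT-1080 3 of 10 passed, 2 higher and 1 lower. For the partners and the adaptors alike, the shares over all genes in HEK-293T were 5.12% higher and 4.88% lower. They were 30.5 and 31.3% without replicate 1, and 32.7 and 32.6% in HT-1080.

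Feedback inhibitors and transcriptional targets of the pathway did not move one way. In HEK-293T 4 of 15 passed, 1 higher and 3 lower, beside 5.12% higher and 4.88% lower over all genes. Without siHNRNPH1 replicate 1, 14 of 15 passed, 8 higher and 6 lower, where 30.5% of all genes were called higher and 31.3% lower. In HT-1080 12 of 14 passed, 7 higher and 5 lower, beside 32.7% higher and 32.6% lower over all genes. SPRY4, a Sprouty inhibitor, fell by 1.15 in HEK-293T (SE 0.26, edgeR adjusted p = 0.0455), from 34 to 46 counts per siNegative library. In HT-1080, where it was well expressed at 117, 102 and 116 CPM, it went to 77.7, 76.8 and 75.9 CPM and fell by 0.61 (SE 0.05, edgeR adjusted p = 7.43e-06). SPRY2 had a value of -0.06 in HEK-293T (edgeR adjusted p = 0.825) and rose by 0.36 in HT-1080 (edgeR adjusted p = 1.26e-04). DUSP6, a phosphatase of ERK, fell by 0.98 in HEK-293T (edgeR adjusted p = 0.025) and rose by 0.75 in HT-1080 (edgeR adjusted p = 0.0175), a difference of 1.66 (interaction edgeR adjusted p = 0.00139). In HT-1080 DUSP6 was low, with 14 to 20 counts per siNegative library and 28 to 32 per siHNRNPH1 library. Its HT-1080 call was lost by DESeq2 and with no filter on low counts. It was also lost without siNegative replicate 1, siNegative replicate 2 or siHNRNPH1 replicate 1 of HT-1080. ETV5, an ETS transcription factor, fell by 0.84 in HEK-293T (edgeR adjusted p = 0.0229), with a value of -0.02 in HT-1080. ETV4 fell by 0.25 in HT-1080 (edgeR adjusted p = 0.00119), with a value of -0.10 in HEK-293T. SPRED3 rose in both lines, by 1.40 and 1.08, and the membrane protein FLRT3 rose by 1.81 in HT-1080. Without HEK-293T siHNRNPH1 replicate 1, the HEK-293T values were 2.44 for FGF18, 1.45 for FGF17, -1.77 for FGFBP3, -1.001 for SPRY4, -0.96 for DUSP6, -0.78 for ETV5 and 1.27 for SPRED3. Leaving that library out also moved ETV4 from -0.10 to -0.72 (edgeR adjusted p = 0.0258), FLRT3 from 0.04 to 0.34 (edgeR adjusted p = 4.68e-05) and SPRY2 from -0.06 to 0.06 (edgeR adjusted p = 0.275).

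**Figure D5:**
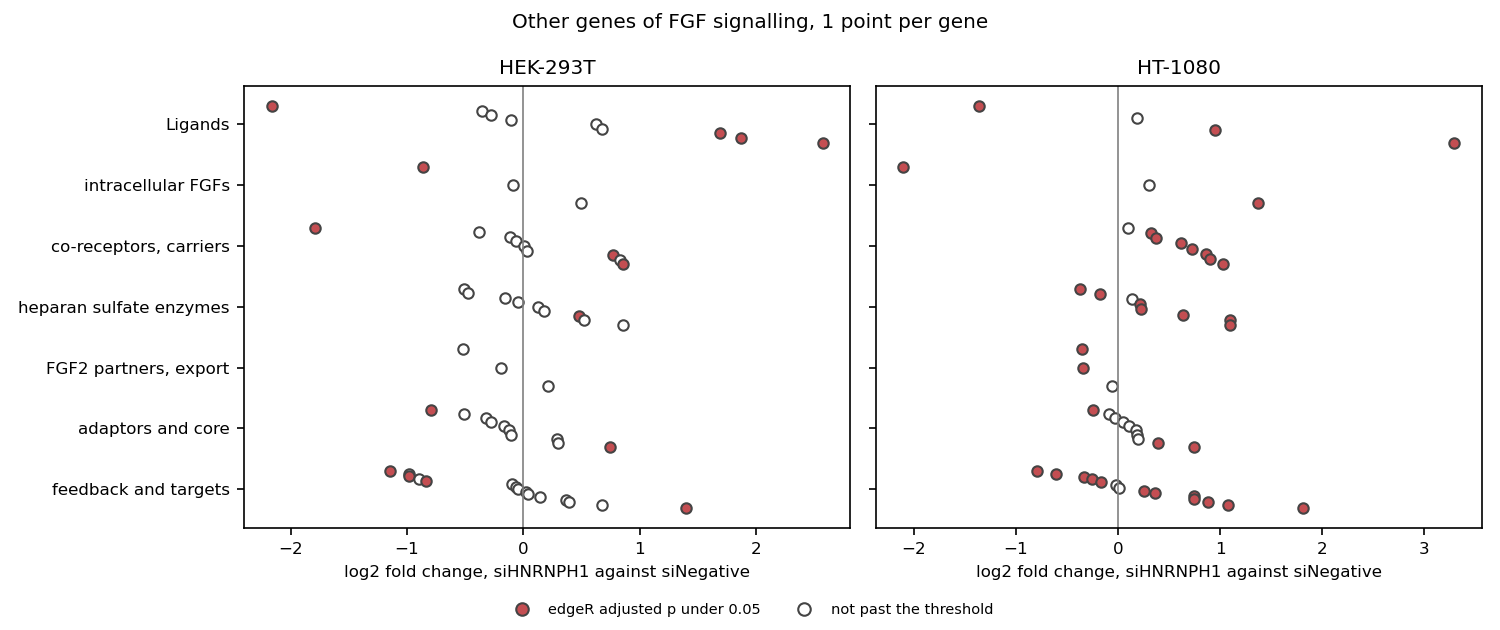
Log2 fold change of siHNRNPH1 against siNegative (horizontal axis) for the other genes of FGF signalling tested in HEK-293T (left) and HT-1080 (right), 1 point per gene, in rows by role; filled points have an edgeR adjusted p under 0.05. Co-receptors and carriers that passed in HT-1080 all lie right of 0, while feedback inhibitors and targets lie on both sides in each line.

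The genes whose pattern was most like that of FGF2 were TGOLN2, DR1, PRRG1, TRIM24 and CCDC50. Likeness was the Pearson r of log2(CPM + 1) over the 12 libraries after the mean of each line was subtracted, among 12172 genes, and was 0.998, 0.997, 0.997, 0.996 and 0.995. These points share their libraries and depth, including replicate 1 of HEK-293T siHNRNPH1, and the genes were picked by this value. TGOLN2, a protein of the trans-Golgi network, gave -1.55 as its HEK-293T log2 fold change and -1.91 as that of HT-1080, beside -1.89 and -2.29 for FGF2. For PRRG1 they were -1.71 and -1.80, and for DR1, a repressor of transcription, -1.24 and -1.42. TRIM24 gave -0.92 and -0.91, and CCDC50 -0.69 and -0.85.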

How the data were processed

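The authors deposited RSEM expected counts per transcript, 1 table per line, and positions of collapsed IsoSeq models, per the labels and the file headers. RSEM and the build GRCh38.p13 come from the submitters' processing notes. The aligner, annotation release, trimming, strandedness and RSEM version are not given in the sources used here.

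Gene values are the rounded sums of these expected counts over transcripts. After edgeR's filterByExpr they were scaled by TMM and tested two-sided with edgeR's quasi-likelihood test (edgeR 4.0.16, R 4.3.3) on the 6 libraries of a line, or on all 12 for the interaction and the control comparison. Adjusted p-values are Benjamini-Hochberg over all genes, with a threshold of 0.05. Standard errors come from the F statistic. Transcript usage was tested with limma 3.58.1 diffSplice. DESeq2 1.42.0 was an alternative. The steps were tested on simulated data. IsoSeq models were assigned by RefSeq gene spans (GRCh38.p14), used for names only. All 7 gene identifiers matched the gene name table.

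The members and gene lists were chosen with earlier results of these data known. Names were taken from the 7 genes, their transcripts with a share of at least 5% (some of these are given only as counts), HNRNPH1, the 5 genes most like FGF2, and from the pathway list, per line, the 5 called genes with the largest change and a mean count of at least 50, plus SPRY2, SPRY4, DUSP6, ETV4 and ETV5. Flanking genes were also read. No library was a copy of another of its group (chi-square over degrees of freedom, 1.77 to 847). Of the value columns, 0 had no sample.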

Additional observations from a re-analysis of the deposited data

Results flagged for a closer look

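For 3 receptors the effect of siHNRNPH1 differed between the lines by the interaction test over all 12 libraries. The log2 fold change of FGFR1 in HT-1080 minus that in HEK-293T was -0.65 (edgeR adjusted p = 0.00344), and all 3 HT-1080 siHNRNPH1 libraries lay below their controls. The same difference was 2.54 for FGFR3 (edgeR adjusted p = 6.58e-05), with 8 to 16 counts per HT-1080 siNegative library, and 0.61 for FGFRL1 (edgeR adjusted p = 0.0295). Without HEK-293T siHNRNPH1 replicate 1 these values were -0.72, 2.58 and 0.77.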

How the results depend on the processing

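In HT-1080 the 5 calls among the members held in every alternative. In HEK-293T the number called, 2, was 1 with no filter on low counts, 5 with all 12 libraries in 1 fit, 0 with the replicate number as a block, and 0 to 5 with 1 library left out. The interaction's 3 calls became 2 to 5 with 1 library left out, and FGFR1 lost its call with no filter (edgeR adjusted p = 0.0665). Pathway genes called in HEK-293T, 15, were 0 with the replicate block, 24 in the 12-library fit and 0 to 46 with 1 library left out, and the 36 of HT-1080 were 23 in the 12-library fit. Adding NUDT6 to FGF2 gave -1.68 in HT-1080. Transcripts whose groups did not overlap numbered 6 to 10 in HEK-293T and 4 to 9 in HT-1080 with 1 library left out, where groups of all compared transcripts did not overlap in 36.8 to 49.3% and 36.4 to 38.8% of cases, against 30.7 and 27.9% with all libraries. No called value of the 7 genes changed sign. Among those not called, FGFR2 in HT-1080 went from -0.07 to 0.03 without siHNRNPH1 replicate 3. The FGFR4 interaction of -0.11 was 0.28 without HEK-293T siHNRNPH1 replicate 1, 0.14 without HT-1080 siNegative replicate 2, 0.05 without HT-1080 siHNRNPH1 replicate 1, 0.03 by library size alone and 0.01 with no filter. The FGFR1 difference between controls, 0.07, was -0.16 by library size alone and -0.17 with no filter.

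Over all genes, HEK-293T calls were 1997, against 3982 by DESeq2, 1302 with no filter, 4550 in the 12-library fit and 0 to 12557 with 1 library left out. The replicate block called 0 (4169 at an unadjusted p under 0.05), and 0 were also called without siNegative replicate 2 or 3 (3517 and 3486 unadjusted). HT-1080 calls were 10538, or 6237 in the 12-library fit and 9535 to 11625 with 1 library left out, the most without siNegative replicate 2. Interaction calls were 4034, or 2535 with the block and 9535 without HEK-293T siHNRNPH1 replicate 1. With the block the FGFR3 and FGFR4 values in HEK-293T were 0.56 and 1.17, not called, and the FGFRL1 interaction was 0.62 (edgeR adjusted p = 0.0923). Libraries with 1 number did not deviate together (r -0.0043 to 0.0977), though each HEK-293T library, and 1 of 3 numbers in HT-1080, correlated best with its own number. Shares per length and models with an annotated junction were not run, as transcript lengths and junctions were not used here. Depth limits FGFR3, FGFR4 and the FGF2 variants in HT-1080.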
